A study of Mus musculus with 20 samples.

Results

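The expression of 10 genes of hepatic fatty acid synthesis and its control was followed across 20 mouse liver libraries, namely Srebf1, Mlxipl, Fasn, Acaca, Acacb, Acly, Me1, Elovl6, Thrsp and Pklr. They were chosen by gene symbol, and all 10 were found among the 55385 genes of the deposited table and passed the filter on low counts. The libraries formed 4 groups of 5, which were WT on chow, LXRα-/- on chow, WT on a high fat diet (HFD) and LXRα-/- on HFD, all labelled as liver at week 24. The genotype entry of the labels calls the LXRα-/- animals an LXR knockdown, and neither the deleted stretch, the strain, the sex nor the composition of the diets is stated. The labels do not say whether each library came from a separate animal, so p-values measure only the spread between these libraries.

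Liver makes fatty acids from carbohydrate. Glycolysis, of which pyruvate kinase catalyses the last step, feeds citrate out of the mitochondrion. ATP citrate lyase splits that citrate into acetyl-CoA, acetyl-CoA carboxylase turns it into malonyl-CoA, and fatty acid synthase builds palmitate from it with NADPH that malic enzyme helps to supply. The genes for these enzymes are transcribed under SREBP-1c, which follows insulin, and ChREBP, which follows glucose. The oxysterol receptor LXRα binds DNA with RXRα and is a known activator of the SREBP-1c gene, which is why its loss is studied in this pathway.

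Library totals ran from 75549139 to 108889938 counts. The share of counts on mitochondrial genes was 4.71% ± 0.743 (SD, n = 5) in WT chow, against 22.0% ± 4.77 in LXRα-/- chow, 15.1% ± 4.08 in WT HFD and 16.9% ± 3.05 in LXRα-/- HFD. WT chow was thus apart from the other groups in this measure, with a highest library of 5.67% below the lowest of 9.77% elsewhere. The level of the clock genes Arntl and Npas2 over Dbp and Per3, on a log2 scale, was -6.04 ± 0.75 in WT chow, -4.18 ± 1.63 in LXRα-/- chow, -0.94 ± 1.86 in WT HFD and -5.71 ± 2.52 in LXRα-/- HFD. This measure rests on weakly expressed genes, with group means of 0.040 to 0.60 FPKM for Npas2 and 0.18 to 0.69 FPKM for Arntl. Genes of fatty acid synthesis follow the daily cycle of feeding, and the hour of collection is not in the labels. The part of the mitochondrial share and of the clock level in the differences below was not tested beyond fits that hold each as a covariate.

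The targeted gene went against its label. Nr1h3, which encodes LXRα, was at 40.1, 32.8, 35.9, 41.3 and 45.3 FPKM (fragments per gene length and library size) in WT chow libraries 1 to 5. In the LXRα-/- chow libraries it was at 46.6, 66.1, 58.9, 7.89 and 59.8 FPKM. In WT HFD it was at 20.5, 18.7, 24.5, 14.3 and 17.5 FPKM and in LXRα-/- HFD at 77.2, 10.3, 67.1, 73.9 and 70.9 FPKM. Only library 4 of LXRα-/- chow and library 2 of LXRα-/- HFD were below every WT library of their diet. Neither genotype difference passed edgeR's test, with log2 0.26 (adjusted p = 0.662) on chow and 1.44 (adjusted p = 0.145) on HFD. A count over the whole gene does not show whether an intact message was made, so the groups are called by their labels throughout. For genotype, the counts of lipogenic genes that passed were the same without library 4 of LXRα-/- chow (6 on chow) and without library 2 of LXRα-/- HFD (0 on HFD). On HFD the count was 0 in every other fit too. The interaction called 1 gene, Me1, without either library, against 2 with all libraries. Both libraries left out are ones whose Nr1h3 level goes with the label, so these fits do not test the label.

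Srebf1 (chromosome 11, 60199089 to 60222581, minus strand, coordinates as deposited and matching GRCm38) encodes SREBP-1, the insulin-responsive activator of the lipogenic enzymes. Mlxipl (chromosome 5, 135089890 to 135138382, plus strand) encodes ChREBP, the glucose-responsive one. RefSeq windows of 300 bases around annotated starts (GRCm38.p6) were available for all 10 genes, 15 windows in all. Of these, 6 are printed here because they hold letters like those that LXRα, ChREBP or partner factors bind, or because their genes changed most. Capitals mark matches on either strand to the E-box CACGTG, the CCAAT box, the GC box GGGCGG, a relaxed LXR element of 2 copies of GGTNA with 5 bases between them, and a relaxed carbohydrate response element of CACGNG and CNCGTG with 5 bases between them. For Srebf1 the window is chr11:60210422-60210721 (minus strand), at a start inside the gene, and for Mlxipl it is chr5:135089640-135089939 (plus strand).
Srebf1: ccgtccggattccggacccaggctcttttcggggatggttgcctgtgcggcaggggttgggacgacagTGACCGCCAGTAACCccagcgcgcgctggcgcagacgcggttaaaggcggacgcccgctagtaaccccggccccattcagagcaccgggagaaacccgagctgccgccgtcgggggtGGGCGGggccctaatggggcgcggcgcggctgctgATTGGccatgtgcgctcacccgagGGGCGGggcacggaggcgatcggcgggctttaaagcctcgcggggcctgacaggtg
Mlxipl: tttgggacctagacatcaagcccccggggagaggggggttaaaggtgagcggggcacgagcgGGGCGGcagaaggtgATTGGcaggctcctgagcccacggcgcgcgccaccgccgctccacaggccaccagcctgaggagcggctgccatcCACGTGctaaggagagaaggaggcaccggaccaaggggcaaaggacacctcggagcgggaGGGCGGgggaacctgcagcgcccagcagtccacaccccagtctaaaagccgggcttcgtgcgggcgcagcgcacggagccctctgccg
The relaxed LXR element lay in this Srebf1 window, beginning at position -182 from the start, and in the Fasn window, and in 0.718% of all 32851 mouse windows of this length. Its strict form, with full repeats, was in none of the 15 windows and in 0.0152% of all windows. The relaxed forms were searched after the windows of these genes had been read, so their presence is a description. The E-box was found in the Mlxipl window alone among the 15, and in 7.15% of all windows. The sterol regulatory element core TCACCCCA, a site of SREBP, was in none of the 15 windows and in 1.56% of all windows. The strict carbohydrate response element, with 2 full E-boxes, was in none of the 32851 windows.

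Srebf1 was higher on HFD in WT and did not follow the genotype label. In WT chow libraries 1 to 5 it was at 12.1, 8.94, 43.7, 16.0 and 34.6 FPKM, and in LXRα-/- chow at 44.0, 37.9, 30.5, 42.5 and 19.8 FPKM. Libraries 3 and 5 of WT chow lay within the range of the LXRα-/- libraries and the other three below it. Across genotype on chow the log2 difference was 0.57 (SE 0.34), which did not pass edgeR's test (adjusted p = 0.192), though it did without WT chow library 3 (0.90, adjusted p = 0.0388). In WT HFD the values were 31.8, 52.4, 48.1, 47.9 and 35.6 FPKM, and the gene rose by 0.94 (SE 0.34, adjusted p = 0.0452) over WT chow with overlapping groups. That call ended, at adjusted p up to 0.112, without any 1 of WT chow libraries 1, 2 and 4 or WT HFD libraries 2, 3, 4 and 5. In LXRα-/- HFD Srebf1 was at 47.3, 32.9, 47.6, 58.7 and 49.3 FPKM, with a log2 difference of -0.08 (SE 0.34) from WT HFD and 0.29 (SE 0.34) from LXRα-/- chow, neither of which passed. The count is for the whole gene, so the SREBP-1a and SREBP-1c transcripts are not told apart.

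Mlxipl was lowest in WT chow and its ranges overlapped among the other groups. It was at 25.0, 10.9, 26.8, 31.6 and 38.6 FPKM in WT chow and at 79.0, 82.8, 68.3, 63.9 and 36.3 FPKM in LXRα-/- chow. The groups overlapped in these FPKM values, since library 5 of LXRα-/- chow was under library 5 of WT chow, but not in counts scaled by the TMM factors of edgeR. Mlxipl rose with the genotype label on chow by 1.26 (SE 0.28, adjusted p = 0.00119), a 2.39-fold difference. In WT HFD it was at 42.4, 48.1, 79.2, 64.4 and 53.1 FPKM, every library above every WT chow library, and it rose by 1.12 (SE 0.28, adjusted p = 0.00483). In LXRα-/- HFD it was at 63.3, 48.9, 104, 75.5 and 65.9 FPKM, within log2 0.12 (SE 0.27) of WT HFD and -0.02 (SE 0.27) of LXRα-/- chow. The genotype difference was smaller on HFD than on chow by 1.14 (SE 0.39, adjusted p of the interaction = 0.0461), a call that ended in 14 of the 20 fits that left out 1 library, with adjusted p up to 0.0863.

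**Figure D1:**
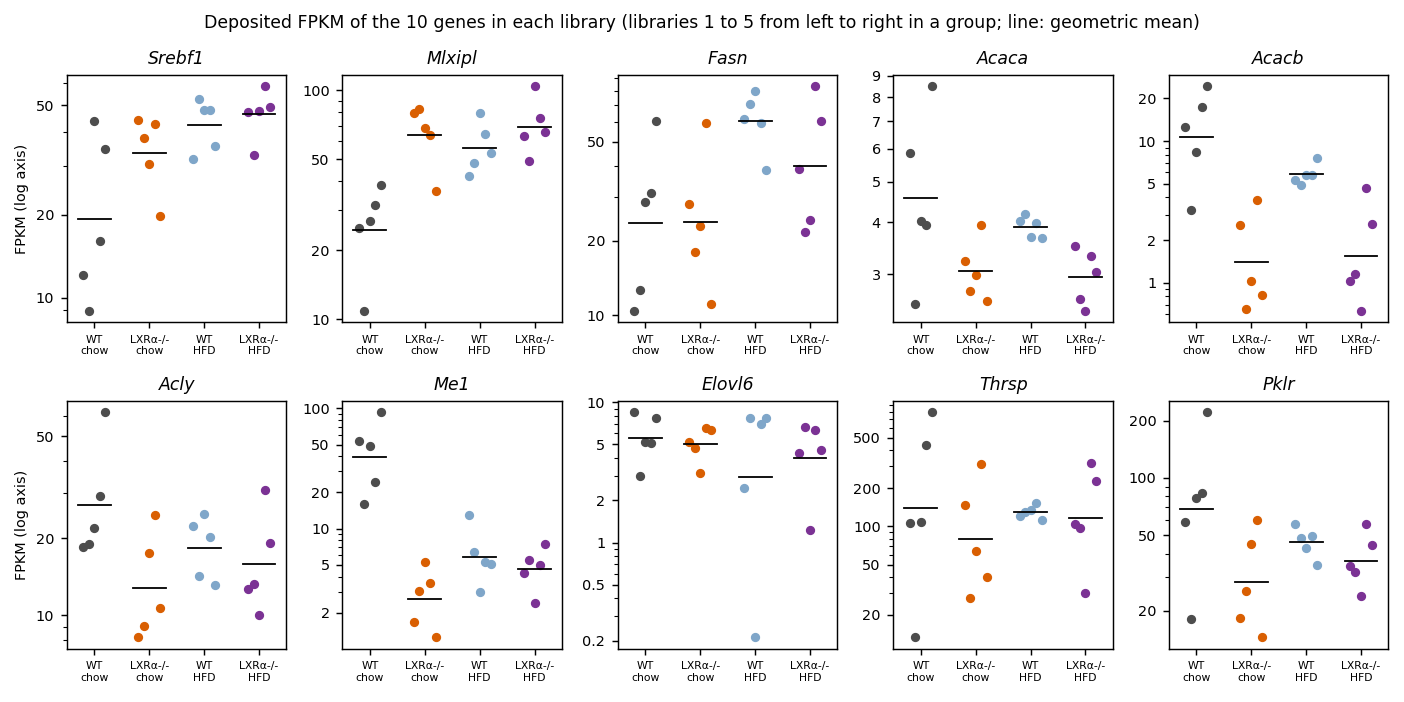
Deposited FPKM (log axis) of the 10 genes, 1 panel a gene and 1 point a library, in the 4 groups of 5 libraries, with libraries 1 to 5 from left to right and a line at the geometric mean. Me1 stands high in WT chow, Mlxipl stands low there, Acacb is low in both LXRα-/- groups, and library 3 of WT HFD is far below the others in Elovl6.

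Acly and Me1 supply the raw materials. Me1 (chromosome 9, 86581371 to 86695953, minus strand), cytosolic malic enzyme, which yields NADPH, changed most of the 10 genes. It was at 53.1, 16.0, 48.8, 24.4 and 93.0 FPKM in WT chow and at 1.66, 3.03, 5.29, 3.56 and 1.25 FPKM in LXRα-/- chow. The lowest WT chow library, library 2, was about 3 times the highest LXRα-/- chow library. Me1 fell by 4.03 on the log2 scale (SE 0.53, adjusted p = 7.1e-06). WT HFD libraries were at 13.0, 6.46, 3.0, 5.30 and 5.10 FPKM, all below WT chow, and it fell by 2.76 (SE 0.50, adjusted p = 0.000377). In LXRα-/- HFD it was at 4.27, 5.44, 2.42, 4.98 and 7.50 FPKM, overlapping WT HFD (-0.64, SE 0.47, adjusted p = 0.578) and LXRα-/- chow (0.63, SE 0.47, adjusted p = 0.886). The genotype difference on HFD was above that on chow by 3.39 (SE 0.68, adjusted p of the interaction = 0.00181), and this passed in each of the 20 fits that left out 1 library, where it ranged from 2.95 to 3.82. The Me1 window, chr9:86695865-86696164 (minus strand), held the GC box 4 times and no E-box; GC boxes were in 35.7% of all windows.
Me1: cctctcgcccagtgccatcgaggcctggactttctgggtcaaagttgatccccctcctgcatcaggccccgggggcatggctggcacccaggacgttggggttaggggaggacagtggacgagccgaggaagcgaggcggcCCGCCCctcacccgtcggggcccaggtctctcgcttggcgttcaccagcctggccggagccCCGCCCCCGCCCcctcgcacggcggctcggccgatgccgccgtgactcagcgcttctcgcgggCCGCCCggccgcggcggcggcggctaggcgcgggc

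Acly (chromosome 11, 100476353 to 100528000, minus strand), ATP citrate lyase, was at 18.5, 19.0, 21.9, 29.3 and 62.1 FPKM in WT chow. In LXRα-/- chow it was at 8.19, 9.06, 17.5, 24.6 and 10.7 FPKM. Only library 4 of LXRα-/- chow lay within the WT chow range, and library 5 of WT chow stood far above the rest. Acly fell by 1.14 (SE 0.40, adjusted p = 0.0266), and the call ended without WT chow library 5 (-0.67, adjusted p = 0.148) or without LXRα-/- chow library 1, 2 or 5 (adjusted p up to 0.0695). Over WT HFD Acly ranged from 13.1 to 24.8 FPKM (median 20.1) and in LXRα-/- HFD from 9.99 to 30.7 FPKM (median 13.2). The genotype groups overlapped on HFD (-0.33, SE 0.39, adjusted p = 0.766), and diet did not pass in WT (-0.68, SE 0.40) or LXRα-/- (0.13, SE 0.39).

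Acetyl-CoA carboxylase has a form for synthesis and a form at the mitochondrial surface, whose malonyl-CoA restrains fatty acid oxidation. Acaca, the cytosolic form (chromosome 11, 84129672 to 84401645, plus strand), was at 5.86, 2.54, 4.02, 3.94 and 8.51 FPKM in WT chow and at 3.22, 2.74, 2.99, 3.94 and 2.59 FPKM in LXRα-/- chow. The groups overlapped through WT chow library 2. Acaca fell by 0.70 (SE 0.24, adjusted p = 0.0249), and the call ended without WT chow library 5 (-0.39, adjusted p = 0.133) or LXRα-/- chow library 2 (-0.61, adjusted p = 0.0668). On HFD the WT libraries kept to a narrow band of 3.67 to 4.18 FPKM. All 5 LXRα-/- HFD libraries were lower, at 3.51, 2.62, 2.45, 3.33 and 3.03 FPKM. That difference, -0.60 (SE 0.24), was close in size to the one on chow but did not pass over all genes (adjusted p = 0.257). Diet differences were -0.31 (SE 0.24) in WT and -0.21 (SE 0.24) in LXRα-/- and did not pass.

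Acacb, the mitochondrial form (chromosome 5, 114146535 to 114250761, plus strand), was at 12.5, 3.25, 8.31, 17.3 and 24.5 FPKM in WT chow. In LXRα-/- chow it was at 2.56, 0.65, 1.03, 3.81 and 0.82 FPKM. Library 2 of WT chow lay below library 4 of LXRα-/- chow, and the other WT libraries lay above them all. Acacb fell by 2.91 (SE 0.61, adjusted p = 0.000772), in every fit without 1 library too. WT HFD was at 5.32, 4.90, 5.72, 5.80 and 7.65 FPKM and LXRα-/- HFD at 1.04, 1.15, 0.63, 4.64 and 2.59 FPKM, each below the lowest WT HFD library. The difference of -1.74 (SE 0.59) did not pass over all genes (adjusted p = 0.186). The interaction was 1.18 (SE 0.81, adjusted p = 0.34), so the genotype differences on chow and HFD were not told apart. The diet difference was -1.16 (SE 0.58, adjusted p = 0.144) in WT and 0.02 (SE 0.57) in LXRα-/-. The RefSeq window for Acacb, chr5:114165268-114165567 (plus strand), is at a start inside the gene and held a CCAAT box, the site of NF-Y, which 37.4% of all windows held.
Acacb: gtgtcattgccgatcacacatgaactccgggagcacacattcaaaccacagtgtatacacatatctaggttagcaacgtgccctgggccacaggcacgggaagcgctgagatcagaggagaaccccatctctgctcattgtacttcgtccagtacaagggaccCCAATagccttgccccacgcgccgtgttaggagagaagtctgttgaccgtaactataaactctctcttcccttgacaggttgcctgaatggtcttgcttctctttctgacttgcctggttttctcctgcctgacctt

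Fasn (chromosome 11, 120805846 to 120824547, minus strand), fatty acid synthase, did not follow the genotype label. It was at 10.4, 12.7, 28.5, 31.2 and 60.4 FPKM in WT chow and at 28.1, 18.0, 22.9, 59.7 and 11.1 FPKM in LXRα-/- chow, with the ranges almost the same. The log2 difference was -0.08 (SE 0.50, adjusted p = 0.914), and its sign changed in 8 recomputations. The WT HFD libraries were at 61.7, 71.1, 79.8, 59.3 and 38.6 FPKM, and libraries 4 and 5 overlapped WT chow. The diet difference of 1.12 (SE 0.50) did not pass edgeR's test (adjusted p = 0.104), but did without WT chow library 5 (1.60, adjusted p = 0.0254). LXRα-/- HFD spanned 38.8, 21.7, 24.2, 84.0 and 60.4 FPKM, which overlapped WT HFD (-0.63, SE 0.50, adjusted p = 0.602) and LXRα-/- chow (0.56, SE 0.50, adjusted p = 0.911). Its window, chr11:120824498-120824797 (minus strand), held the relaxed LXR element at position -225 from the start and CCAAT boxes.
Fasn: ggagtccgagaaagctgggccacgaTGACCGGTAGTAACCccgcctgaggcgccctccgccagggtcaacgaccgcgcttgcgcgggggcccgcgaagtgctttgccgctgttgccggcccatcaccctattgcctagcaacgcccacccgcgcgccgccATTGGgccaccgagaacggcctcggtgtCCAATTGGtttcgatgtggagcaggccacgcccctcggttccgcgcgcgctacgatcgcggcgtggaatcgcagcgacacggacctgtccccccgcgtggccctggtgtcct

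Elovl6, the elongase that takes palmitate to stearate (chromosome 3, 129532355 to 129634971, plus strand), passed in no comparison. It was at 8.49, 2.99, 5.20, 5.16 and 7.65 FPKM in WT chow and from 3.12 to 6.52 FPKM (median 5.22) in LXRα-/- chow. In WT HFD it was at 2.43, 7.68, 0.21, 7.01 and 7.74 FPKM, and in LXRα-/- HFD at 4.31, 6.65, 1.23, 6.35 and 4.58 FPKM. Library 3 was the lowest in both HFD groups, and its WT value was far under the other 4. The 4 differences lay between -0.35 and -0.15, each with an SE of 0.59.

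Pklr (chromosome 3, 89136142 to 89146594, plus strand), liver pyruvate kinase and the classical target of ChREBP, was at 58.4, 18.1, 78.0, 82.9 and 222 FPKM in WT chow. In LXRα-/- chow it was at 18.3, 25.3, 45.0, 60.1 and 14.5 FPKM. WT chow library 2 was as low as the lower LXRα-/- libraries, and library 5 was the highest of all. Pklr fell by 1.54 (SE 0.49, adjusted p = 0.0152), a call that ended without WT chow library 5 (-0.89, adjusted p = 0.105). WT HFD ranged from 34.8 to 57.4 FPKM and LXRα-/- HFD from 24.0 to 57.0 FPKM, and the difference of -0.49 (SE 0.48) did not pass. The diet difference in WT, -0.96 (SE 0.48, adjusted p = 0.146), passed without WT chow library 2 (-1.23, adjusted p = 0.0376). The Pklr window, chr3:89136373-89136672 (plus strand), was the only one of the 15 with the relaxed carbohydrate response element, which lay at position -170 from the start and was in 0.0457% of all windows.
Pklr: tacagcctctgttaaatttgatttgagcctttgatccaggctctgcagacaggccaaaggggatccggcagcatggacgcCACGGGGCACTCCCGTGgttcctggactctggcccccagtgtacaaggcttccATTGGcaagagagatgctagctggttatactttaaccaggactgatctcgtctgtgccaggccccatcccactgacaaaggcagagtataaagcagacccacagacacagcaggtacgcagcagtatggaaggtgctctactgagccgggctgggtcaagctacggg

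Thrsp (chromosome 7, 97412938 to 97417730, minus strand), the thyroid hormone-responsive Spot 14 protein of lipogenic tissues, had the highest mean FPKM of the 10 genes in all 4 groups. It was at 107, 13.3, 108, 442 and 797 FPKM in WT chow, a 59.8-fold range, and at 148, 27.0, 63.5, 309 and 40.2 FPKM in LXRα-/- chow. WT HFD was at 122, 131, 135, 152 and 112 FPKM, a 1.36-fold range, and LXRα-/- HFD at 105, 97.9, 29.6, 315 and 229 FPKM. The WT HFD libraries lay within the range of each other group. Thrsp passed in no comparison, with -1.37 (SE 0.81, adjusted p = 0.187) for genotype on chow and -1.20 (SE 0.81, adjusted p = 0.292) for the diets in WT.

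Over the 10 genes, genotype on chow called 6 in edgeR. Mlxipl was higher and Me1, Acacb, Pklr, Acly and Acaca were lower. Among all 18905 genes tested, 22.3% were called higher and 21% lower, so calls were common in this comparison at large. The median log2 difference was -0.92 over the 10 genes and 0.08 over all genes. Groups did not overlap in scaled counts for Mlxipl and Me1, 2 of 10 genes, against 29.3% of all genes. With the mitochondrial share as a covariate none of the 10 was called, with Me1 at -2.87 (adjusted p = 0.153) and Acacb at -3.20 (adjusted p = 0.255). With the clock level as a covariate Mlxipl, Me1 and Acacb were called.

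Genotype on HFD called none of the 10, with 2 genes, Acaca and Acacb, at an unadjusted p under 0.05 in edgeR, and none in DESeq2 or limma. Over all genes 0.254% were called higher and 0.201% lower. Groups did not overlap for Acaca and Acacb, against 7.53% of all genes, and both were lower with the genotype label. The median over the 10 genes was -0.42, against 0.03 over all genes.

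Diet in WT called 3 genes, with Mlxipl and Srebf1 higher and Me1 lower. Of all genes 14.3% were called higher and 15% lower, and the groups of 22.7% did not overlap, as was the case for Mlxipl and Me1. The comparison shares its WT chow libraries with genotype on chow, so the 2 sets of values are not independent. DESeq2 called the same 3, and limma added Fasn at both pseudocounts, at 1.32 (adjusted p = 0.0414) on log2(FPKM + 1) and 1.36 (adjusted p = 0.0385) on log2(FPKM + 0.1). None of the 3 was called with the mitochondrial share or the clock level as a covariate, where Me1 was at -2.06 (adjusted p = 0.0786) and -2.19 (adjusted p = 0.0981). Diet in LXRα-/- called none of the 10 in edgeR, DESeq2 or limma, and no gene had an unadjusted p under 0.05. Over all genes 0.0159% were called higher and 0% lower, and groups did not overlap for 0.83%, none of them lipogenic genes of this set. The largest estimate was that of Me1, 0.63.

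The interaction called Me1 and Mlxipl, against 10.2% of all genes called higher and 9.12% lower. Neither was called with the mitochondrial share or the clock level as a covariate.

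**Figure D2:**
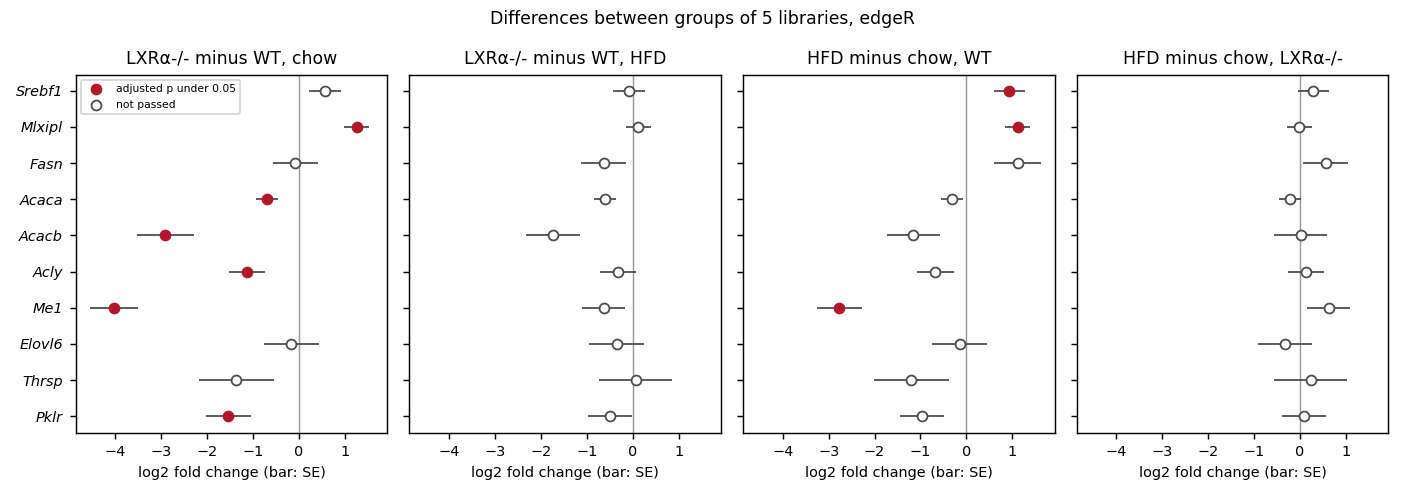
Log2 fold changes (x axis) of the 10 genes in the 4 comparisons between groups of 5 libraries, from edgeR, with bars of 1 SE and filled points where the adjusted p was under 0.05. Filled points are 6 for genotype on chow, 0 for genotype on HFD, 3 for HFD against chow in WT and 0 for the same in LXRα-/-.

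The order of the genes by mean FPKM, which is scaled to gene length, moved most for Me1. It ranked 3 of the 10 genes in WT chow at 47.1 ± 30.1 FPKM (SD, n = 5), 9 in LXRα-/- chow at 2.96 ± 1.61 and 7 in both HFD groups, at 6.58 ± 3.82 in WT and 4.92 ± 1.84 in LXRα-/-. Acacb had a higher mean FPKM than Acaca in both WT groups and a lower one in both LXRα-/- groups. Mlxipl and Srebf1 ranked 6 and 7 in WT chow and 2 and 3 in both LXRα-/- groups. By group mean, Acacb, Acly, Me1 and Pklr shared 1 order, with WT chow highest, then WT HFD, LXRα-/- HFD and LXRα-/- chow, although neighbours in that order overlapped for all 4 genes except WT chow and WT HFD for Me1 and the HFD groups for Acacb.

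Ratios of 2 genes within a library do not depend on how libraries are scaled. There were 8 ratios and 4 comparisons, which gave 32 two-sided exact permutation tests, whose smallest possible p is 0.00794. The log2 ratio of Acacb to Acaca was 1.23 ± 0.66 (SD, n = 5) in WT chow and -1.13 ± 0.89 in LXRα-/- chow, with no overlap (exact permutation p = 0.00794, adjusted p = 0.0423). On HFD it was 0.57 ± 0.31 in WT and -0.93 ± 1.04 in LXRα-/-, where library 4 of LXRα-/- HFD lay within the WT range (exact permutation p = 0.0238, adjusted p = 0.109). In FPKM Acacb was thus above Acaca in all 10 WT libraries, and below it in 9 of the 10 LXRα-/- libraries. This order depends on the gene lengths that scale FPKM, while the differences between groups do not. In raw counts Acacb was below Acaca in WT chow library 2 and WT HFD libraries 1 to 4. It was above Acaca in the other WT libraries and below it in all LXRα-/- libraries.

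The log2 ratio of Me1 to Acly went from 0.55 ± 0.81 in WT chow to -2.30 ± 0.66 in LXRα-/- chow and -1.65 ± 0.89 in WT HFD, both past the threshold (exact permutation, adjusted p = 0.0423). The ratio of Pklr to Mlxipl, an enzyme gene over that of its activator, went from 1.48 in WT chow to -1.17 in LXRα-/- chow and -0.29 in WT HFD, likewise past the threshold (exact permutation, adjusted p = 0.0423). The ratio of Fasn to Acaca rose with diet in WT from 2.36 to 3.95 (exact permutation, adjusted p = 0.0423). No ratio passed between genotypes on HFD or between diets in LXRα-/-. The 6 calls stand at the smallest p the test allows, and none of them passed without WT chow library 1, 3, 4 or 5 or WT HFD library 3. All 6 kept their sign in those fits. Tied at 1 p, the 6 share an adjusted p that depends on how many tests reach it. They can thus end together, and their loss does not tie each call to the library left out.

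**Figure D3:**
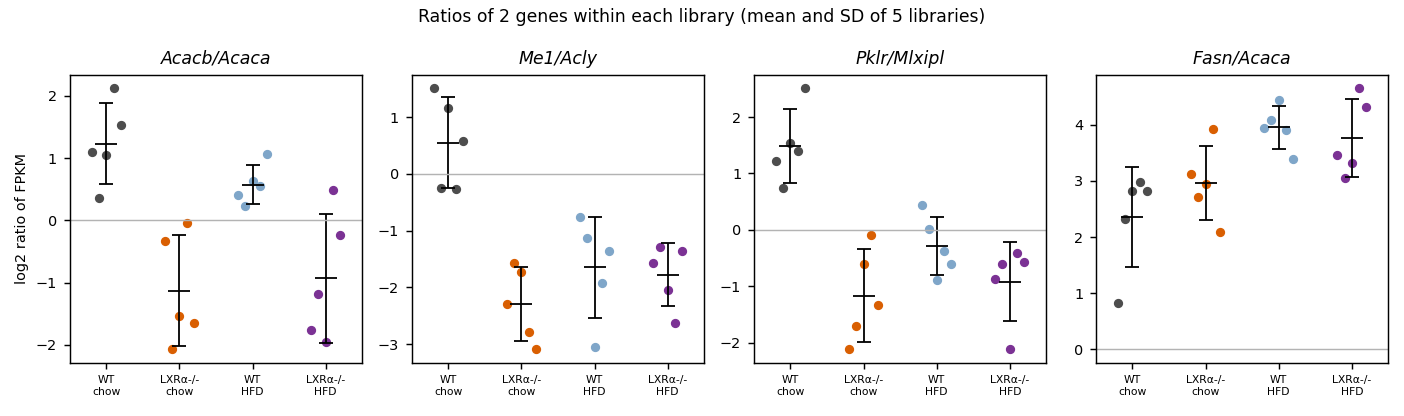
Log2 ratio of FPKM (y axis) of 4 gene pairs in each library of the 4 groups, with the mean and SD of 5 libraries as a bar. In FPKM Acacb lies above Acaca in all WT libraries, an order that depends on the gene lengths used. The Me1 to Acly and Pklr to Mlxipl ratios are highest in WT chow.

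In 3 of the 4 groups, 1 library was the highest, and 1 the lowest, for 6 to 8 of the 10 genes. Library 2 of WT chow was the lowest of its group for 8 of the 10 genes and library 5 the highest for 8. In LXRα-/- chow library 4 was the highest for 7 genes and library 5 the lowest for 6. In LXRα-/- HFD library 4 was the highest for 6 genes and library 3 the lowest for 7. In WT HFD no library was the highest for more than 3 genes, and the group was the most even, with a median highest to lowest ratio of 1.76 over the genes, against 5.35 in WT chow, 3.57 in LXRα-/- chow and 3.09 in LXRα-/- HFD.

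Deviations from group means in log2 CPM (counts scaled to library size) were correlated over the 20 libraries, as a description, since all genes of a library share its depth and scaling. Over the 45 pairs of genes the median Pearson r was 0.58. Acacb and Thrsp were the closest, at r = 0.94 (Spearman's rho 0.87). By Pearson r, the 36 pairs without Elovl6 ran from 0.19 to 0.94 with 27 above 0.5, while none of the 9 pairs with Elovl6 exceeded 0.44. Elovl6 in WT HFD library 3 lay at -3.95 from its group mean, a value that weighs on r. Spearman's rho did not set Elovl6 apart in this way. It was 0.55 with Acaca and 0.53 with Acacb, and 0.43 or lower with the rest. For Mlxipl, rho was 0.63 with Srebf1 but 0 with Acaca and -0.07 with Me1. Among 6938 genes with a mean of at least 2 FPKM, the closest to each gene were Tmie for Srebf1 (r = 0.89), Abcc6 for Mlxipl (0.94), Mfsd3 for Fasn (0.89), Emc9 for Acaca (0.87) and Masp2 for Acly (0.89). For Me1 it was Aifm1 (0.89), for Pklr Fahd2a (0.94) and for Elovl6 Zfp91 (0.83, with a rho of 0.43).

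**Figure D4:**
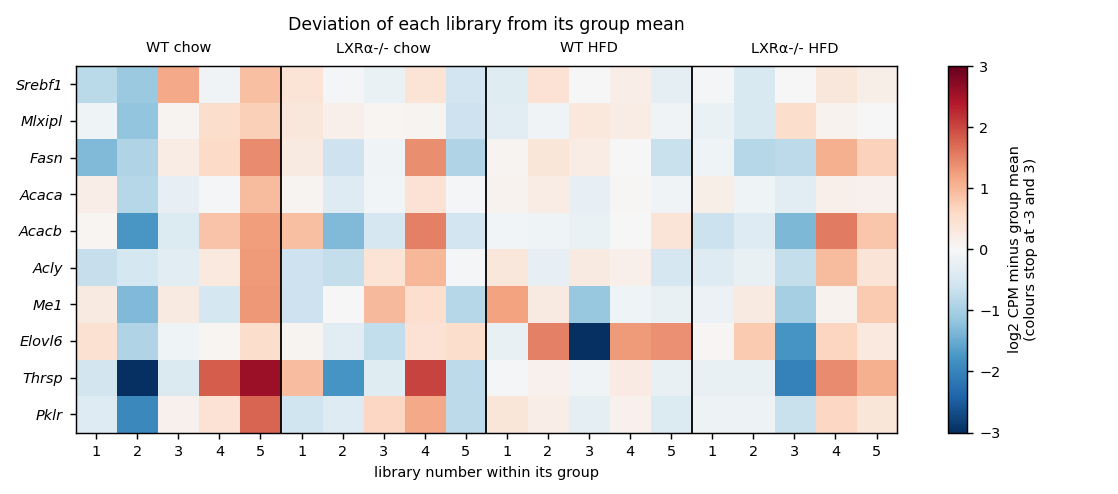
Deviation of each library (x axis, libraries 1 to 5 in each of 4 groups) from its group mean in log2 CPM for the 10 genes (y axis), on a colour scale from -3 to 3. Many genes share a colour within WT chow library 2 (low) and library 5 (high), and WT HFD shows the palest columns apart from Elovl6.

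The wider pathway was described with 8 gene lists. Of 11 partner factors, Rxra, Usf2, Mlx and Srebf2 fell with the genotype label on chow and none rose. Rxra, the DNA-binding partner of LXRα, fell by 1.42 (adjusted p = 1.24e-06). Mlx, the partner of ChREBP, fell by 0.88 (adjusted p = 0.00452), while Mlxipl itself rose. Usf2, an E-box factor of the Fasn promoter, fell by 1.79 (adjusted p = 0.004). Srebf2 fell by 1.03 (adjusted p = 0.0239), a call that ended without WT chow library 2 and with only the groups compared. Rxra fell with diet in WT too, by 0.95 (adjusted p = 0.000144). None passed for genotype on HFD.

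Of 5 genes that process SREBP, on chow Mbtps1, the site-1 protease, fell by 0.44 (adjusted p = 0.00684), Scap, the escort protein, fell by 0.56 (adjusted p = 0.0289) and Mbtps2, the site-2 protease, rose by 0.71 (adjusted p = 0.0299). The Scap and Mbtps2 calls each ended in 5 of the 10 fits that left out 1 library. Insig1, which retains SREBP in the endoplasmic reticulum, rose with diet in WT by 1.06 (adjusted p = 0.0281), a call that ended in 4 of 10 such fits.

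Of 9 genes that supply substrate or NADPH, 4 fell and 2 rose on chow. Acss2, which makes acetyl-CoA from acetate, fell by 2.11 (adjusted p = 0.000601). Pgd and Taldo1 of the pentose phosphate pathway fell by 1.17 (adjusted p = 0.000584) and 0.96 (adjusted p = 0.00223). Idh1, cytosolic isocitrate dehydrogenase and another source of NADPH, rose by 0.64 (adjusted p = 0.003), opposite to Me1. With diet in WT, Idh1 rose by 0.98 (adjusted p = 0.000158) and Pgd fell by 0.64 (adjusted p = 0.0472), a call that ended in 6 of the 10 fits without 1 library. On HFD none passed with the genotype label, and the smallest p was that of G6pdx, at -0.92 (adjusted p = 0.138).

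Of 8 genes that desaturate, elongate or esterify the products, 5 fell on chow and none rose. Pnpla3, a lipase and SREBP-1c target, fell by 5.27 (adjusted p = 0.00374), at levels near the floor. Its mean was 0.71 FPKM in WT chow, with a median of 0.53, and 0.017 FPKM in LXRα-/- chow. The desaturases Fads2 and Fads1 fell by 2.26 (adjusted p = 0.000154) and 1.60 (adjusted p = 0.000109). Dgat2, which makes triglyceride, fell by 1.26 (adjusted p = 0.00052). On HFD none passed, with Pnpla3 at -4.82 (adjusted p = 0.105) and means of 0.99 FPKM in WT and 0.036 in LXRα-/-. The list's median was -1.43 on chow and -0.57 on HFD, against 0.08 and 0.03 over all genes.

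Of 8 genes of AMPK and malonyl-CoA turnover, 3 fell on chow. Cpt1a, the carnitine transferase that malonyl-CoA inhibits, fell by 2.16 (adjusted p = 4.75e-06). Mlycd, which breaks down malonyl-CoA, fell by 1.25 (adjusted p = 0.00013), and the AMPK subunit Prkag1 fell by 0.77 (adjusted p = 0.00832). Cpt1a fell with diet in WT as well, by 1.55 (adjusted p = 0.000242), and its interaction was 2.41 (adjusted p = 0.00026).

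Of 10 other ChREBP targets, 2 fell on chow, Txnip among them, and Fgf21 rose. The Txnip call ended in 7 of the 10 fits without 1 library, and the Fgf21 call in 5. Fgf21, a hormone of nutrient stress, rose with diet in WT by 4.10 (adjusted p = 0.000118), in every fit without 1 library. Of 8 other LXR targets, Smpdl3a, Lpcat3 and Mylip fell and Abca1 rose on chow, with a list median of 0.00. The Abca1 call ended in 7 of the 10 fits without 1 library, and also with library totals, without a filter and with only the groups compared, and the Mylip call in 3 of the 10 and with library totals. Smpdl3a fell by 1.37 (adjusted p = 5.54e-05) and Lpcat3, which places polyunsaturated chains in phospholipids, by 1.29 (adjusted p = 0.000932). The sterol transporter genes Abcg5 and Abcg8 did not pass, at 0.70 and -0.02. On HFD Pltp, phospholipid transfer protein, fell by 2.56 (adjusted p = 0.0438), in 2 of 10 fits without 1 library. Of 8 targets of SREBP-2 in sterol synthesis and uptake, Sqle and Cyp51 fell on chow, by 2.62 (adjusted p = 0.000353) and 1.24 (adjusted p = 0.0045).

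In LXRα-/- none of these 8 lists had a gene that passed with diet in edgeR. With the mitochondrial share as a covariate, none of the list genes named above for chow passed. The shares of all genes called, given with each comparison of the 10 genes, apply to these counts as well.

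**Figure D5:**
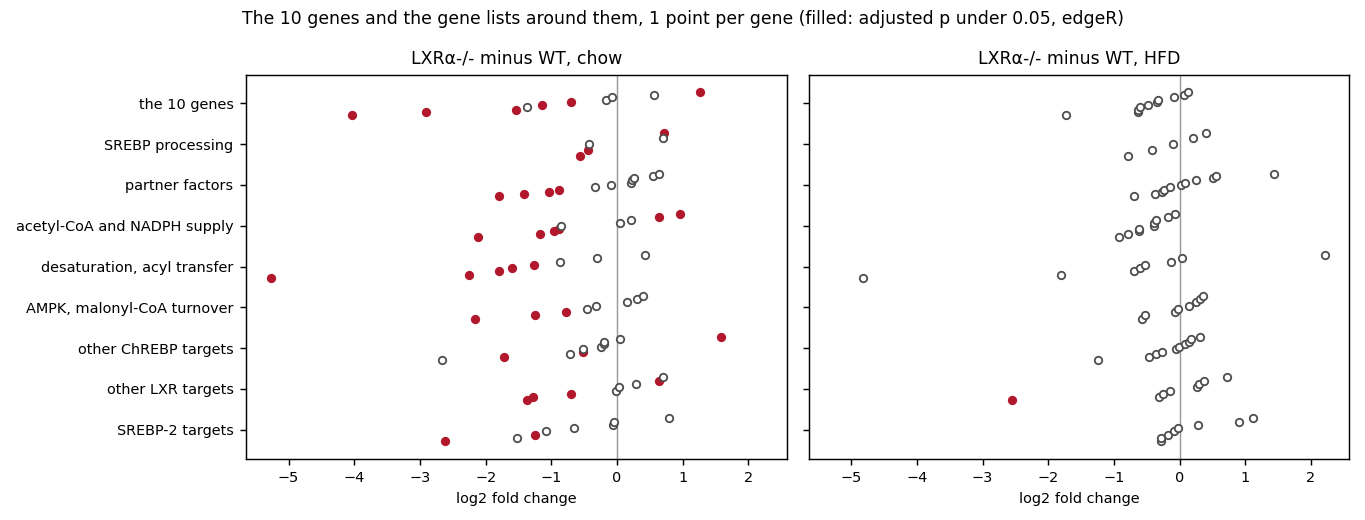
Log2 fold changes (x axis) with the genotype label on chow and on HFD for the 10 genes and 8 lists of related genes, 1 point a gene, filled where edgeR's adjusted p was under 0.05. On chow most filled points lie left of 0, and on HFD the only filled point is Pltp.

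Markers of cell types were compared because fewer cells of a type and less RNA per cell cannot be told apart in these libraries. The tissue label is liver, while the extraction text mentions adipose RNA. All 8 hepatocyte markers were found in every group, and summed to 26830 to 66736 FPKM in WT chow (median 59475), 40269 to 96550 in LXRα-/- chow (67677), 97160 to 113917 in WT HFD (103226) and 62645 to 92520 in LXRα-/- HFD (86089). With the genotype label on chow Cps1 fell by 2.15, Cyp2e1 fell by 1.99 and Serpina1a fell by 1.27, while Apoa2 rose by 1.08 (log2). With diet in WT, Cps1 fell by 1.73 and Serpina1a fell by 0.80, while Apoa2 and Apoa1 rose by 1.74 and 1.33. None of the 8 passed for genotype on HFD or diet in LXRα-/-. The 7 adipocyte markers summed to 0.66 to 10.1 FPKM in WT chow, 3.11 to 112 in LXRα-/- chow, 4.37 to 106 in WT HFD and 11.7 to 363 in LXRα-/- HFD. Lep was at 0 in all libraries of both LXRα-/- groups. Cfd and Cidea made up most of these sums, with mean FPKM of 1.80 and 0.20 in WT chow against 34.9 and 6.08 in LXRα-/- chow, and both rose with the genotype label on chow and with diet in WT. Adipoq, Plin1, Retn and Fabp4 instead had higher means in WT chow than in either LXRα-/- group, such as 0.26 for Adipoq against 0.021 on chow. That Adipoq mean rested on WT chow library 1, at 1.05 FPKM against a median of 0.079. WT HFD library 1 was the highest of its group for Adipoq (5.56 FPKM, median 0.061), Retn (3.60), Fabp4 (4.12), Plin1 (0.97) and Lep (0.44). Of the 10 lipogenic genes, Me1 and Pklr were also highest there. In WT chow, Adipoq was highest in library 1 but Me1 in library 5 (93.0 FPKM, against 53.1 in library 1). Cfd and Cidea were highest in WT HFD library 2. Adipoq, Retn and Fabp4 passed in no comparison, and Plin1 and Lep were not tested. The 6 Kupffer cell markers summed to 49.9 to 96.9 FPKM in WT chow against 6.73 to 30.7 in LXRα-/- chow, where all 6 fell, and to 26.0 to 37.3 in WT HFD against 4.94 to 11.7 in LXRα-/- HFD, where Cd5l and Timd4 fell. The 5 endothelial markers summed to between 11.0 and 24.7 FPKM in all groups. With the genotype label on chow Kdr fell by 0.89 and Clec4g by 0.60 (log2). With diet in WT, Kdr fell by 0.82 and Lyve1 by 1.28. The Clec4g call ended in 1 of the 10 fits without 1 library, and the Lyve1 call in 6. None of the 5 passed for genotype on HFD or diet in LXRα-/-. The part of these markers in the lipogenic differences was not tested.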

How the data were processed

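The authors deposited 1 table with raw counts and FPKM of each gene in 20 libraries, per the file headers. Per the submitters' processing notes, Bowtie 0.12.2, HISAT2 2.0, StringTie 1.3.0 and the build mm8 were used, with no roles given. The coordinates match GRCm38 instead, since 55144 of 55385 IDs were in GENCODE M21 and 99.6% of these had the same start. No source used here names the counting program or how it treated strand, so reads of overlapping genes cannot be told apart.

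Groups and library numbers came from the sample titles. Counts were fitted with edgeR 4.0.16 in R 4.3.3 (filterByExpr, TMM, quasi-likelihood F test, 1 mean per group over all 20 libraries), which left 18905 genes. P-values (two-sided) were adjusted over all of them by Benjamini-Hochberg and called under 0.05. The SE was derived from the F statistic. FPKM served for levels, for ratios (scipy 1.17.1) and for limma 3.58.1 on log2(FPKM + 1) and log2(FPKM + 0.1). DESeq2 1.42.0, other scalings and filters, covariates, a replicate block and leaving out each library were alternatives, and removing mitochondrial genes was added after the data were seen. The scripts were tested on simulated data. Library totals ran from 75549139 to 108889938 counts; the number of libraries per group also limits the precision.

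The members and lists were chosen with earlier results of these data known. Named genes are the 10 members, up to 4 genes with the smallest p per list and comparison, and the closest gene to each member. Abcg5 and Abcg8 were named after their values were seen. The relaxed motifs were chosen after reading the members' windows. Some genes of the lists are not reported here.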

Additional observations from a re-analysis of the deposited data

Results flagged for a closer look

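Acly in WT chow library 5 stood at 62.1 FPKM, while the other 4 libraries of that group lay between 18.5 and 29.3. Of 40 sets of 5 values examined for a library far from the others, this was the only 1 found. Chance gives about 1 in every 20 sets, so 1 in 40 is not more than chance gives. The rule used FPKM without logs and did not flag Elovl6 in WT HFD library 3 (0.21 FPKM, the others 2.43 to 7.74). Library 5 was the highest of its group for 8 of the 10 genes. The genotype difference of Me1 differed between diets, by 3.39 on the log2 scale (edgeR interaction, SE 0.68, adjusted p = 0.00181). The difference of Mlxipl between genotypes also differed between diets, by -1.14 (edgeR interaction, SE 0.39, adjusted p = 0.0461). Both interactions include the WT chow group, which stood apart in its mitochondrial share.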

How the results depend on the processing

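Among the 11 member values that passed, 102 of 130 recomputations under other settings still passed with the same sign, 27 no longer passed and 1 reversed; with 1 library left out, 102 of 130 passed and 28 did not. Among the 39 that did not pass, 3 of 460 and 3 of 470 passed, and 49 and 33 changed sign. The number of members called on chow was 3 with only the groups compared, 0 with the mitochondrial share and 3 with the clock level as covariate, and 3 to 7 without 1 library. For diet in WT it was 2 without a filter or with only the groups compared, 4 with limma at either pseudocount (Fasn added), 0 with either covariate and 2 to 4 without 1 library. For the interaction it was 1 with library totals, without a filter and with limma at either pseudocount, 0 with either covariate, and 1 to 2 without 1 library. For the ratios, 6 calls became 0 to 7 without 1 library. The covariates differ between the groups, so their fits and the group differences cannot be fully told apart. How far depth limits these results was not tested.

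Library numbers did not pair the libraries: 30 pairs with the same number had correlations of -0.12 to 0.08. With the replicate block 6, 0, 4, 0 and 2 members were called for genotype on chow, genotype on HFD, diet in WT, diet in LXRα-/- and the interaction, with Fasn added for diet in WT (1.39, adjusted p = 0.0438). Under the block Thrsp for genotype on HFD (-0.49), Acacb for diet in LXRα-/- (-0.046) and Elovl6 for the interaction (0.13) changed sign.

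The other sign changes were as follows, and the cause was not tested. With the mitochondrial share as covariate Acly on chow came to 0.035 (edgeR adjusted p = 0.992), Srebf1 on chow to -0.16, Fasn on chow to 0.22 and Acly for diet in WT to 0.046. For diet in LXRα-/-, Mlxipl came to 0.10, Acly to -0.17, Elovl6 to 0.18 and Pklr to -0.15. For the interaction, Srebf1 came to 0.013, Acly to -0.22 and Elovl6 to 1.38. With the clock level as covariate Fasn and Elovl6 on chow came to 0.26 and 0.24, and Thrsp on HFD to -2.71. For diet in WT, Acaca came to 0.14, Acly to 0.12, Thrsp to 1.57, Elovl6 to 0.98, Acacb to 0.89, Adgre1 to 0.33, Per3 to 0.53 and Dbp to 0.68. For diet in LXRα-/-, Mlxipl came to 0.016, Acly to -0.12, Thrsp to -0.59, Pklr to -0.13 and Acacb to -0.61. For the interaction, Acaca came to -0.48, Acly to -0.25, Thrsp to -2.17, Acacb to -1.50, Fads2 to -0.44 and Per3 to -0.39. Per3 and Dbp are themselves part of the clock level, so their values with it as covariate are no test of them.

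With library totals Srebf1 on HFD came to 0.13, Mlxipl for diet in LXRα-/- to 0.13 and Elovl6 for the interaction to 0.047. With limma at pseudocounts 1 and 0.1, Fasn on chow came to 0.019 and 0.023, Srebf1 on HFD to 0.13 and 0.13, Thrsp on HFD to -0.14 and -0.14, and Elovl6 on HFD to 0.11 and 0.36. Likewise Mlxipl for diet in LXRα-/- came to 0.12 and 0.13 and Elovl6 for the interaction to 0.24 and 0.50. With a mean of at least 1 CPM Fasn on chow came to 0.019 and Acacb for diet in LXRα-/- to -0.018. With DESeq2 and with median-of-ratios factors the latter came to -0.0036 and -0.0035.

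Leaving out 1 library gave ranges across 0 on chow for Fasn (-0.60 to 0.40), and on HFD for Mlxipl (-0.034 to 0.22), Srebf1 (-0.17 to 0.033) and Thrsp (-0.34 to 0.33). For diet in WT it did so for Acaca (-0.48 to 0.0053) and Elovl6 (-0.39 to 0.16). For diet in LXRα-/- it did so for Mlxipl (-0.17 to 0.084), Acly (-0.17 to 0.46), Thrsp (-0.18 to 1.01), Pklr (-0.088 to 0.47) and Acacb (-0.53 to 0.52). For the interaction it did so for Acaca (-0.21 to 0.27) and Elovl6 (-0.49 to 0.069).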
